A study of Mus musculus with 15 samples.

Results

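The 7 genes described here encode costimulatory receptors of the CD28 family, Icos and Cd28, and ligands of the B7 family, Icosl, Cd80, Cd86, Cd274 and Pdcd1lg2. They were followed in mouse lung ILC2s (group 2 innate lymphoid cells), lymphocytes that lack rearranged antigen receptors and are a major source of the type 2 cytokines IL-5 and IL-13. The genes were chosen by name as members of these families, and the array feature annotated with that gene symbol alone was taken for each; every one of them had a single such feature. They are 7 of 22180 genes with a feature of their own, and 6 of them were among the 16257 genes that were bright enough to be tested across the whole table. Cd86 lay above the dim limit (percentile 40 of an array) in fewer than 3 arrays, so its values come from a fit without that filter.

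Total RNA was measured on 15 Affymetrix arrays in 5 groups of 3. The neonatal cells came from untreated mice 10 days old, with no sex in the labels. Effector cells came from adult females and adult males that were given IL-33, an epithelial alarm cytokine that activates ILC2s, through the nose on 3 days in a row and were sampled 1 day after the last dose. Naive cells came from untreated adult females and males 8 weeks old. The sources used here give no strain, genotype, age of the effector adults, sorting markers, number of mice per array or batch, and no group is labelled as dosed without IL-33. Dosing, age and any batch that follows the groups therefore cannot be told apart from the effect of IL-33, and the labels call the arrays biological replicates.

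The receptor ICOS binds its ligand ICOSL, and lung ILC2s are known to carry both, so that neighbouring or the same cells can engage the receptor. CD28 and its inhibitory relative CTLA-4 share the ligands CD80 and CD86, which are best known from dendritic cells and B cells. PD-L1, encoded by Cd274, and PD-L2, encoded by Pdcd1lg2, bind the inhibitory receptor PD-1, and CD80 can also bind PD-L1 on the same membrane. ICOS and CD28 recruit phosphatidylinositol 3-kinase, and CD28 also feeds the NF-kB pathway.

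Levels are log2 values as deposited, so a difference of 1 is a doubling of array signal, and levels of different genes cannot be set against each other because each feature has its own probes. Sensory receptor genes, silent in lymphocytes, gave a background range: the upper quartile of the 387 such genes that passed the filter on dim features was 4.68 on neonatal arrays, 4.35 on effector arrays and 5.22 on naive adult arrays. That filter keeps the brighter of these genes, and over all 1394 with a feature the upper quartile, called the lower limit here, was 3.71, 3.36 and 4.07 on the same arrays. A gene at or under the first value of its group is said to lie in the background range, and a difference from such a group is one of array signal, with the exact change of the transcript unknown. Being in that range does not show that a transcript was absent, and the limits differ between conditions, so counts of genes above them cannot be compared between conditions as levels can. The labelled cell type was checked on 14 genes that define ILC2s, of which 11 had a feature; all 11, Gata3, Rora and Klrg1 among them, lay above the background range in neonates, effector adults and naive adults. Array medians were 4.44 to 4.64, and the correlation between arrays of one group was 0.962 to 0.974 for effector cells and 0.904 to 0.960 for the other groups. The values describe RNA of a cell population, in which fewer cells with a transcript and less of it per cell cannot be told apart. A difference is given with the standard error (SE) of a limma fit to all 15 arrays and a Benjamini-Hochberg adjusted p over the 16257 tested genes, and is called where that p is under 0.05.

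The ligand genes Cd80 and Icosl were the members called between effector and naive adults, in opposite directions. The 250 bases before the transcript start that the RefSeq promoter table gives for each are shown because they are the regions in which sequence motifs were looked for. They are from RefSeq on the forward strand of build GRCm38.p6, where the Cd80 region is chr16:38458683-38458932 and the Icosl region is chr10:78069118-78069367. The Icosl start is the first base of the annotated gene, whereas that of Cd80, a gene with 5 RefSeq transcripts, lies 1503 bases inside it, so bases before the other starts of Cd80 were not searched. Capitals mark a match to the AP-1 motif TGANTCA. No capitals in the Icosl line means that none of the motifs searched was found there.
Cd80: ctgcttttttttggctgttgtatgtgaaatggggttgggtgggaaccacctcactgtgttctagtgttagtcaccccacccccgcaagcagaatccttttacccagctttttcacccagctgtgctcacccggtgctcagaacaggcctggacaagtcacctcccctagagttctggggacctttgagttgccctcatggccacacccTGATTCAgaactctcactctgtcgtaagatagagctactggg
Icosl: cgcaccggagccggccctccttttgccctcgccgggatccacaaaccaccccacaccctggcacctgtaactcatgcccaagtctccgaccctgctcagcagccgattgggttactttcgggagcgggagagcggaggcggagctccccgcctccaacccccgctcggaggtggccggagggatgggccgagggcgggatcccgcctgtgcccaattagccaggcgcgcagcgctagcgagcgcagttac
The regions differed in base composition. That of Icosl had 68.8% G and C and 23 CpG sites, and that of Cd80 had 52.8% G and C and 3 CpG sites, against medians of 52.4% and 6 over 32851 RefSeq mouse promoters. Each motif was searched on both strands, and no match overlapped another. The AP-1 motif, bound by Fos and Jun proteins, had its match 42 bases before the Cd80 transcript start used, with the letters TGATTCA, and 6.75% of all promoter regions held this motif. Promoters of 4 members were found in the RefSeq table, and the start used for Cd274 lies 5331 bases inside its gene. For the motif of GATA factors, which govern ILC2 identity, the letters searched were AGATAA alone, and other forms of this motif were not looked for. Cd274 held 2 matches and Pdcd1lg2 held 1, and 9.99% of promoter regions held one. For GAS, the site of interferon-activated STAT proteins, the letters were TTCNNNGAA, found in 7.02% of promoter regions and in none of the 4 windows.

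Icos was well above the background range on every array, whatever the condition. Its level was 9.62, 8.45 and 8.62 in neonates, 8.51, 8.15 and 8.25 in effector females, 7.66, 7.89 and 7.82 in effector males, 8.76, 8.61 and 8.85 in naive females, and 7.76, 7.98 and 7.80 in naive males. The highest value was that of 1 neonatal array, and the males of both conditions formed the low end without overlap with any other group. The order of group means was neonates (8.90 ± 0.63, SD, n = 3), naive females (8.74 ± 0.12), effector females (8.31 ± 0.19), naive males (7.85 ± 0.11) and effector males (7.79 ± 0.12). Neonates and naive females overlapped, as did naive and effector males, while naive females lay above effector females and effector females above naive males without overlap.

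Cd28, whose product is the founding receptor of the family, was dim. It read 5.84, 4.62 and 4.89 in neonates, 4.01, 3.90 and 4.16 in effector females, 4.67, 4.30 and 4.30 in effector males, 4.35, 4.30 and 4.45 in naive females, and 4.04, 4.11 and 4.59 in naive males. Neonates held the highest array and the highest mean, at 5.12 ± 0.64 (SD, n = 3). The adult means of 4.22 ± 0.27 for effector cells and 4.31 ± 0.21 for naive cells (SD, n = 6 each) lay in the background range of their condition, but above the lower limits, as 6 of 6 effector arrays and 5 of 6 naive arrays did. In effector males alone the mean of 4.42 stood just over their own limit of 4.30. Neighbours in the order of the 5 group means overlapped for Cd28 throughout. In the genome Cd28, Ctla4 and Icos follow each other with 0 protein-coding genes between them.

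**Figure D1:**
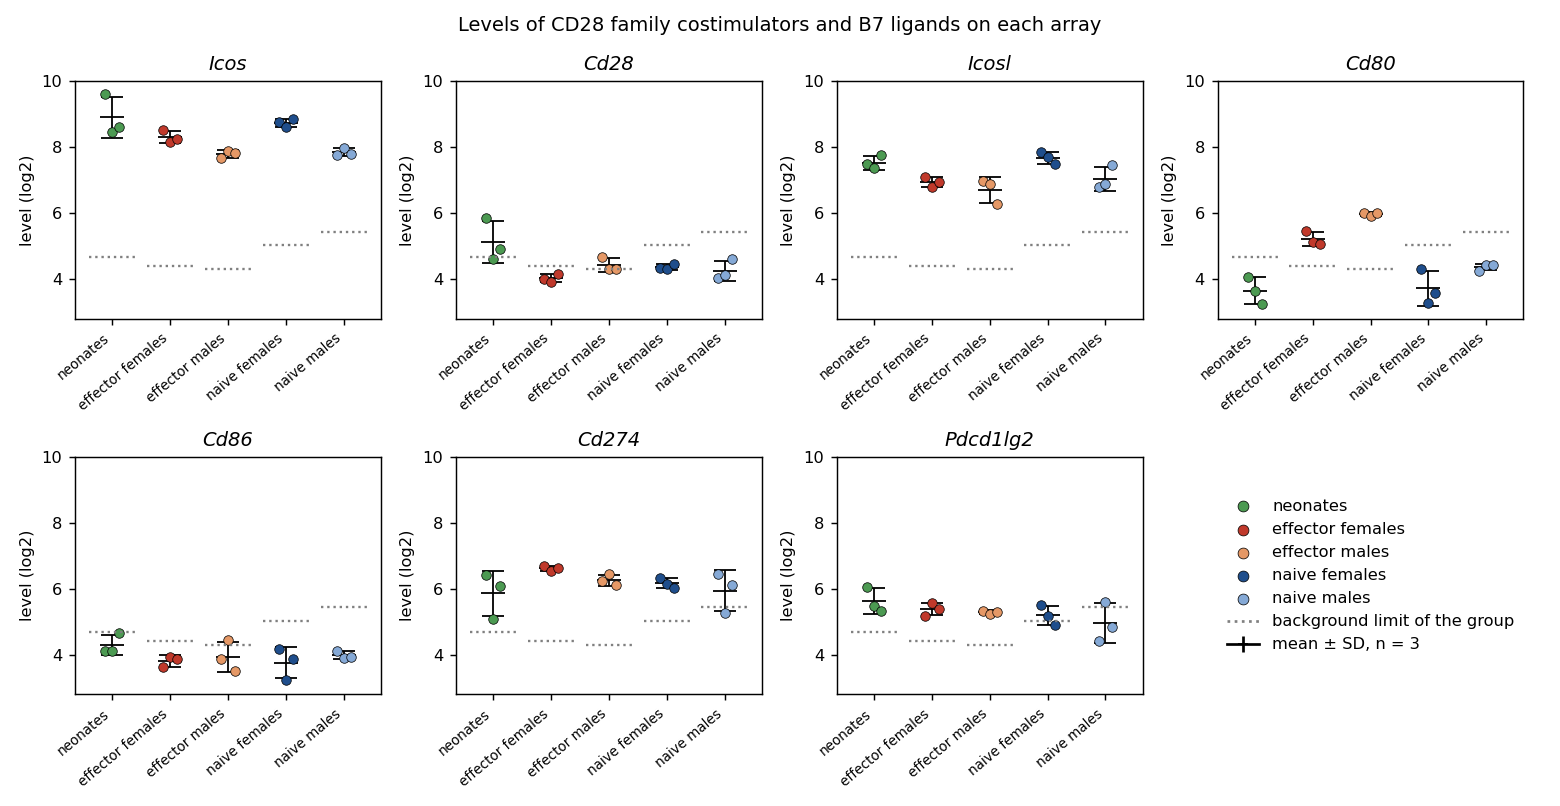
Level of each gene (log2, vertical axis) on each of the 15 arrays by group (horizontal axis), with mean and SD bars (n = 3) and a dotted line at the background limit of the group. Cd80 stands above the line in the effector groups alone, Cd86 lies around or under it in all groups, and Icos and Icosl are far above it on all arrays.

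Icosl, the ligand of ICOS, was also above the background range on every array. Its level was 7.47, 7.35 and 7.75 in neonates, 7.10, 6.78 and 6.95 in effector females, 6.97, 6.89 and 6.26 in effector males, 7.84, 7.69 and 7.49 in naive females, and 6.78, 6.88 and 7.45 in naive males. The 3 effector females lay below all naive females, whereas effector and naive males overlapped. Group means ran from naive females (7.67 ± 0.18, SD, n = 3) through neonates (7.52 ± 0.21), naive males (7.04 ± 0.36) and effector females (6.94 ± 0.16) to effector males (6.71 ± 0.39), and each group overlapped the next.

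Cd80, a ligand shared by CD28 and CTLA-4, had the widest span of group means of the 7 genes, 2.32 on the log2 scale. Its level was 4.07, 3.63 and 3.25 in neonates, 5.44, 5.11 and 5.07 in effector females, 6.0, 5.9 and 6.0 in effector males, 4.29, 3.28 and 3.57 in naive females, and 4.24, 4.41 and 4.43 in naive males. All 6 effector arrays were above the background range of effector arrays and above every array of naive adults and neonates. The order was effector males (5.97 ± 0.05, SD, n = 3), effector females (5.21 ± 0.20), naive males (4.36 ± 0.10), naive females (3.71 ± 0.52) and neonates (3.65 ± 0.41), with overlap among the last 3 groups where they are neighbours. Naive and neonatal means lay in the background range and also under the lower limits, with 4 of 6 naive arrays and 1 of 3 neonatal arrays above those.

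Cd86, the other ligand of CD28 and CTLA-4, was dim, and whether it stood above background depended on the limit: its means were in the background range in all 3 conditions, but above the lower limit in neonates and effector adults. Its mean was 4.29 ± 0.31 in neonates (SD, n = 3), 3.87 ± 0.32 in effector adults and 3.87 ± 0.33 in naive adults (SD, n = 6 each). Neonatal arrays read 4.11, 4.12 and 4.64, effector arrays 3.52 to 4.43 and naive arrays 3.25 to 4.16. Cd86 and Cd80 lie on the same chromosome with 24 protein-coding genes between them.

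Cd274, which encodes PD-L1, was above the background range in each condition. It read 6.41, 5.08 and 6.08 in neonates, 6.69, 6.54 and 6.63 in effector females, 6.23, 6.43 and 6.11 in effector males, 6.33, 6.16 and 6.02 in naive females, and 6.46, 5.27 and 6.10 in naive males. One low array in neonates and another in naive males widened the spread of those groups. Effector females (6.62 ± 0.08, SD, n = 3) stood above effector males (6.25 ± 0.17) without overlap, and the lower groups, naive females (6.17 ± 0.15), naive males (5.94 ± 0.61) and neonates (5.86 ± 0.69), overlapped their neighbours.

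Pdcd1lg2, which encodes PD-L2, sits next to Cd274 in the genome with 0 protein-coding genes between them. Its level was 6.06, 5.48 and 5.33 in neonates, 5.18, 5.56 and 5.39 in effector females, 5.33, 5.22 and 5.31 in effector males, 5.50, 5.18 and 4.91 in naive females, and 4.41, 5.61 and 4.84 in naive males. Neonatal and effector means, 5.63 ± 0.39 (SD, n = 3) and 5.33 ± 0.13 (SD, n = 6), were above the background range of their condition. The naive mean of 5.07 ± 0.45 (SD, n = 6) was within it, with 2 of 6 naive arrays above the limit, and all 6 were above the lower limit. All neighbouring groups overlapped.

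Effector cells had more Cd80 signal and less Icosl signal than naive adult cells, and the other members did not pass the test. Cd80 rose 2.93-fold, a log2 difference of 1.55 ± 0.17 (SE, n = 6 effector and 6 naive arrays; limma adjusted p = 7.51e-06), and the naive arrays it is set against lay in the background range. Icosl fell by 0.53 ± 0.16 on the log2 scale, 1.44-fold (adjusted p = 0.0173), with overlap between the groups. These are 2 of 6 tested members, where 34.6% of all tested genes were called, 23.7% higher and 10.9% lower. Cd80 was also the only tested member whose 6 effector arrays did not overlap the 6 naive arrays, as held for 20.1% of all tested genes.

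The call of Icosl depended on the scaling and on 1 array. With arrays centred on their medians the difference was -0.39 (adjusted p = 0.0752), and without effector male 3, which had the lowest Icosl level of all arrays, it was -0.42 (adjusted p = 0.0505). That centring moved the median difference of all tested genes to 0.17, against 0.03 as deposited, and the share of higher calls to 83.0%, against 68.5%. Cd80 stayed called under each of 25 alternatives, with differences of 1.44 to 1.70.

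The receptors differed little between effector and naive adults relative to their error. Icos differed by -0.24 ± 0.17 (adjusted p = 0.289) and Cd28 by -0.08 ± 0.18 (adjusted p = 0.76). Of the PD-1 ligands, Cd274 differed by 0.38 ± 0.22 (adjusted p = 0.194) and Pdcd1lg2 by 0.26 ± 0.19 (adjusted p = 0.317). Cd86 without the filter on dim features gave 0.00 ± 0.18 (adjusted p = 0.989), between groups that are both in the background range, effector adults above the lower limit and naive adults under theirs. A p that misses the threshold does not show that these levels were equal.

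**Figure D2:**
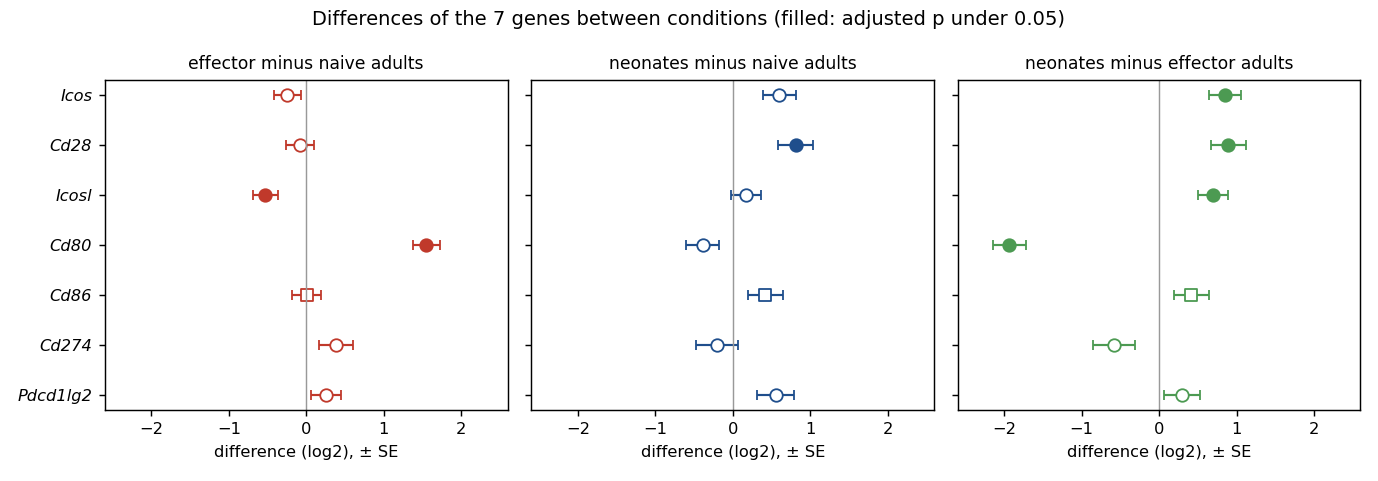
Difference in level (log2, horizontal axis) of each gene for effector minus naive adults, neonates minus naive adults and neonates minus effector adults, with SE bars from the limma fit. Filled symbols passed an adjusted p of 0.05, and squares mark Cd86, which was fitted without the filter on dim features; Cd80 is filled at 1.55 and at -1.94, to the right and to the left of 0.

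Neonates had more Cd28 signal than naive adults, and it was the 1 of 6 tested members called there, where 10.2% of all tested genes were, 6.04% higher and 4.12% lower. Cd28 differed by 0.81 ± 0.22 on the log2 scale, 1.76-fold (SE, n = 3 neonatal and 6 naive arrays; limma adjusted p = 0.0322), and its 3 neonatal arrays did not overlap the naive ones, as held for 11.0% of tested genes. The lowest neonatal array (4.62) was next to the highest naive one (4.59), and naive cells lay in the background range with a mean above the lower limit. The difference was 0.45 (adjusted p = 0.158) without neonate 1, the brightest array for Cd28. It also missed the threshold with naive female 1, naive female 2, naive male 1 or naive male 2 left out, at adjusted p from 0.0556 to 0.0565, and against naive females alone (0.75, adjusted p = 0.105).

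Icos was 0.60 ± 0.21 higher in neonates than in naive adults and did not pass (adjusted p = 0.0799). The value depended on the sex of the adults and was 1.05 against naive males alone (adjusted p = 0.014) and 0.16 against naive females alone. It passed without neonate 2 (0.83, adjusted p = 0.0297) and was 0.24 without neonate 1. The other members were Pdcd1lg2 at 0.55 ± 0.23 (adjusted p = 0.15), Icosl at 0.17 ± 0.19 (adjusted p = 0.633), Cd274 at -0.20 ± 0.27 (adjusted p = 0.698) and Cd80 at -0.39 ± 0.21 (adjusted p = 0.271). Without naive male 2, Pdcd1lg2 passed at 0.72 (adjusted p = 0.035). Cd86 differed by 0.42 ± 0.22 in the fit without the filter (adjusted p = 0.28).

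Against effector adults, neonates had more Icos, Cd28 and Icosl signal and less Cd80 signal, 4 of 6 tested members, where 20.6% of all tested genes were called, 5.93% higher and 14.7% lower. Cd80 fell by 1.94 ± 0.21 on the log2 scale, 3.83-fold (SE, n = 3 neonatal and 6 effector arrays; limma adjusted p = 2.67e-05), and was called under all 27 alternatives. Icos was 0.85 ± 0.21 higher (adjusted p = 0.0105), Cd28 0.90 ± 0.22 (adjusted p = 0.0114) and Icosl 0.70 ± 0.19 (adjusted p = 0.0192). The arrays of Cd80 and Icosl did not overlap, as held for 24.1% of tested genes, and those of Icos and Cd28 did.

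Single choices moved the receptor and Icosl calls in that comparison. Against effector females alone, Icos was 0.59 higher (adjusted p = 0.126) and Icosl 0.58 higher (adjusted p = 0.104). Against effector males alone, Cd28 was 0.70 higher (adjusted p = 0.081). Cd28 was 0.53 higher without neonate 1 (adjusted p = 0.0594) and Icosl 0.59 higher without neonate 3 (adjusted p = 0.0699). Cd274 differed by -0.58 ± 0.27 (adjusted p = 0.14), Pdcd1lg2 by 0.30 ± 0.23 (adjusted p = 0.4) and Cd86, without the filter, by 0.42 ± 0.22 (adjusted p = 0.209). The comparisons among neonates, effector adults and naive adults share arrays, so their values for a gene are not independent.

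Cd80 was higher in effector cells of each sex. In females it rose by 1.50 ± 0.24 (SE, n = 3 and 3 arrays; limma adjusted p = 0.000702) and in males by 1.60 ± 0.24 (adjusted p = 0.000257). Icosl fell by 0.73 ± 0.22 in females (adjusted p = 0.0406) without overlap, and differed by -0.33 ± 0.22 in males (adjusted p = 0.313). The female call of Icosl was lost when any 1 of the 6 female arrays was left out, without the filter, after centring, and with the replicate number as a block. Thus 2 of 6 members were called in females, where 14.0% of all tested genes were (10.2% higher, 3.77% lower), and 1 of 6 in males, where 24.9% were (18.7% higher, 6.25% lower). Effector and naive arrays did not overlap for 5 of 6 members in females, all but Pdcd1lg2, and for 1 of 6 in males, Cd80, as held for 38.0% of tested genes in females and 41.4% in males. Beside those given, the differences in females were -0.43 ± 0.24 for Icos, -0.34 ± 0.26 for Cd28, 0.45 ± 0.31 for Cd274 and 0.18 ± 0.27 for Pdcd1lg2, none of which passed. In males they were -0.06 ± 0.24 for Icos, 0.17 ± 0.26 for Cd28, 0.31 ± 0.31 for Cd274 and 0.33 ± 0.27 for Pdcd1lg2, none of which passed.

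The difference between these responses did not pass for any member. Female minus male, it was -0.40 ± 0.32 for Icosl (limma adjusted p = 0.982), -0.11 ± 0.35 for Cd80 (adjusted p = 0.992), -0.38 ± 0.34 for Icos (adjusted p = 0.982) and -0.51 ± 0.36 for Cd28 (adjusted p = 0.977). It was 0.14 ± 0.44 for Cd274 (adjusted p = 0.992) and -0.15 ± 0.38 for Pdcd1lg2 (adjusted p = 0.99). Over all 16257 genes limma called 0 in this test, 0.0%, with 866 at an unadjusted p under 0.05.

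Females had more Icos signal than males in both adult conditions on every array, but the difference missed the threshold over all genes. It was 0.52 ± 0.24 in effector cells (limma adjusted p = 1) and 0.89 ± 0.24 in naive cells (SE, n = 3 and 3 arrays each; adjusted p = 0.195). Females and males failed to overlap for 4 of 6 members in effector cells (Icos, Cd28, Cd80 and Cd274) and 2 of 6 in naive cells (Icos and Icosl), and for 10.8% and 13.1% of all tested genes. The naive difference passed without neonate 1 (0.89, adjusted p = 0.0322), an array that enters this value through the shared estimate of spread alone. Called genes between the sexes were 0.0308% of those tested in effector cells and 0.209% in naive cells, and 0 of 6 members were among them.

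Cd80 ran the other way, lower in females. The difference of females from males was -0.76 ± 0.24 in effector cells (adjusted p = 1), where the groups did not overlap, and -0.65 ± 0.24 in naive cells (adjusted p = 0.391), where they did and lay in the background range, naive males alone above their own lower limit of 4.18. Icosl was 0.24 ± 0.22 higher in effector females than effector males (adjusted p = 1) and 0.64 ± 0.22 higher in naive females than naive males (adjusted p = 0.348), without overlap in naive cells. Cd28 differed by -0.40 ± 0.26 and Cd274 by 0.37 ± 0.31 between effector females and males, neither past the test (adjusted p = 1 for each). Pdcd1lg2 differed by 0.09 ± 0.27 in effector cells and 0.24 ± 0.27 in naive cells.

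**Figure D3:**
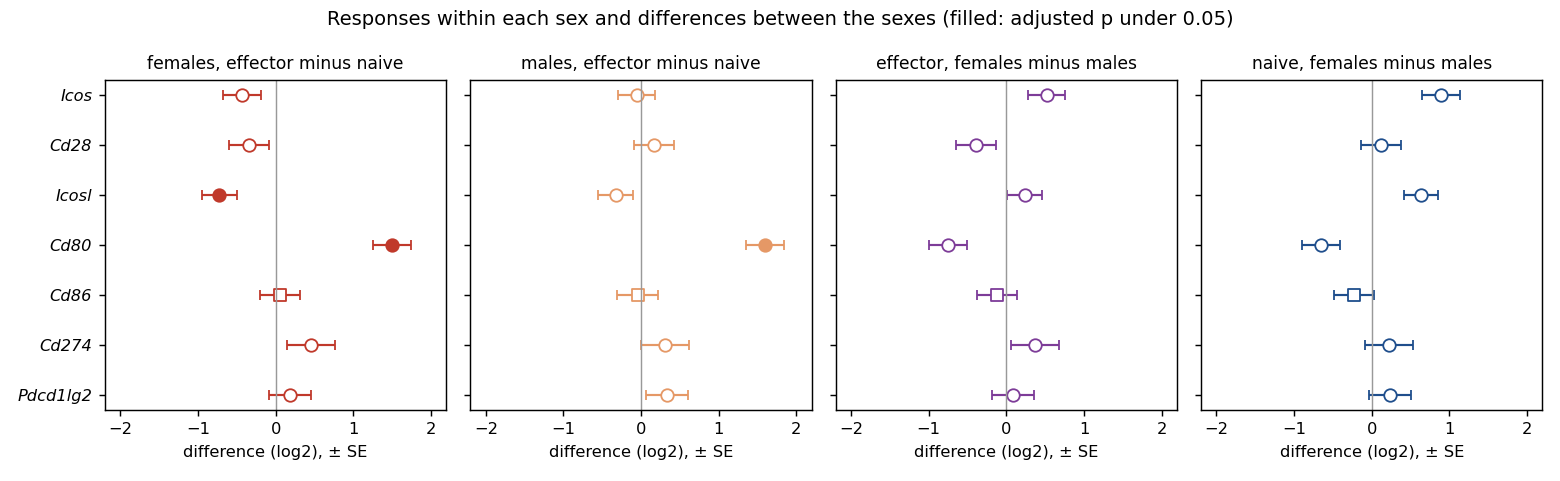
Difference in level (log2, horizontal axis) of each gene for effector minus naive cells in females and in males, and for females minus males in effector and in naive cells, with SE bars from the limma fit. Filled symbols passed an adjusted p of 0.05 and squares mark Cd86, fitted without the filter on dim features; Cd80 is filled in both sexes, and no symbol is filled between the sexes.

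Genes for the inhibitory receptors that share these ligands, Ctla4 and Pdcd1, rose in effector cells. Among 12 relatives and partners of the families, 9 were tested, and 3 rose and 1 fell in effector against naive adults, with a median difference of -0.18 over the 9 and 0.03 over all tested genes, of which 23.7% rose and 10.9% fell. Ctla4, the inhibitory receptor for CD80 and CD86, read 8.60, 8.98 and 9.18 in effector females and 8.09, 8.08 and 7.99 in effector males, against 4.03 to 4.72 on naive arrays, whose mean of 4.38 lay in the background range and above the lower limit. It rose by 4.11 ± 0.19 (SE; limma adjusted p = 4.88e-10). Pdcd1, which encodes PD-1, read 8.55, 8.68 and 8.78 in effector females and 8.37, 8.43 and 8.28 in effector males, against 6.40 to 7.28 on naive arrays, and rose by 1.60 ± 0.19 (adjusted p = 1.1e-05). Both sets of arrays were apart without overlap.

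Tnfrsf14, the receptor known as HVEM that binds BTLA, rose by 0.64 ± 0.17 (adjusted p = 0.00858), and Vsir, which encodes the B7-like checkpoint VISTA, fell by 0.77 ± 0.17 (adjusted p = 0.00307). The inhibitory receptor Btla differed by 0.37 ± 0.16 (adjusted p = 0.0792), the B7 relative Cd276 by -0.27 ± 0.12 (adjusted p = 0.0844) and the B7 relative Vtcn1 by -0.30 ± 0.13 (adjusted p = 0.0745). Btnl2 and Rgmb, a partner of PD-L2, did not pass, and Btn1a1, Btn2a2 and Btnl1 were too dim to be tested.

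In neonates against naive adults, 3 of the 9 relatives rose and 0 fell, where 6.04% of all tested genes rose and 4.12% fell. Ctla4 read 6.12, 5.63 and 6.79 in neonates, between the naive and the effector arrays, and was 1.80 ± 0.23 higher than in naive adults (limma adjusted p = 0.000169). Btla was 0.77 ± 0.19 higher (adjusted p = 0.021) and Cd276 0.54 ± 0.14 higher (adjusted p = 0.029), calls that were lost without neonate 1 and against naive females alone; that of Cd276 was also lost without neonate 3, naive female 1 or naive female 2. Pdcd1 read 7.47, 6.19 and 7.03 in neonates and differed by -0.02 ± 0.23 from naive adults (adjusted p = 0.97). Against effector adults, Ctla4 fell by 2.31 ± 0.23 and Pdcd1 by 1.62 ± 0.23, while Vsir rose by 1.17 ± 0.21 and Cd276 by 0.81 ± 0.14, at adjusted p of 0.00159 or less for these 4 genes.

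**Figure D4:**
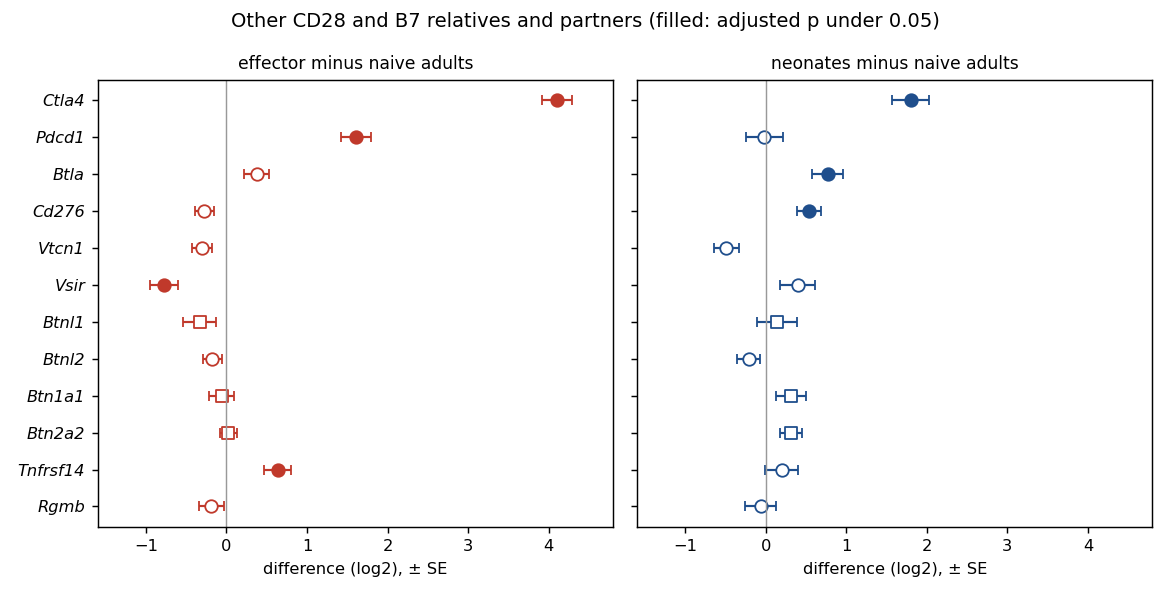
Difference in level (log2, horizontal axis) of 12 relatives and partners of the CD28 and B7 families for effector minus naive adults and for neonates minus naive adults, with SE bars from the limma fit. Filled symbols passed an adjusted p of 0.05 and squares mark genes fitted without the filter on dim features; Ctla4 is filled in both panels, at 4.11 and 1.80.

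Of 22 genes that act below CD28 and ICOS, 18 were tested, and 6 rose and 3 fell in effector against naive adults, with a median difference of 0.17, where 23.7% of all tested genes rose and 10.9% fell. Ptpn11, which encodes the phosphatase SHP-2 recruited by PD-1, rose by 1.13 ± 0.19, and the kinase gene Akt1 by 0.92 ± 0.14. Prkcq, which encodes the protein kinase C that CD28 engages on the way to NF-kB, fell by 1.19 ± 0.17. The kinase gene Tbk1, which acts below ICOS, rose by 0.81 ± 0.25, a call lost after a further quantile normalization and in a fit that left out naive male 1, naive male 2 and neonate 2. In neonates against naive adults 1 of the 18 rose and 0 fell (6.04% and 4.12% of all tested genes), the adaptor gene Grb2 by 0.60 ± 0.13, a call lost without neonate 1, against naive males alone and with only the arrays compared. In neonates against effector adults 3 rose and 2 fell (5.93% and 14.7% of all tested genes), with Malt1, a partner of NF-kB activation, 1.13 ± 0.21 higher.

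Among 14 genes that control the turnover of these proteins or their mRNAs, 12 were tested, of which 2 rose and 0 fell in effector against naive adults, where 23.7% of all tested genes rose and 10.9% fell. They were the sheddases Adam10, known to cleave ICOSL, at 0.64 ± 0.12, and Adam17 at 0.53 ± 0.15. The call of Adam17 was lost after a further quantile normalization and in a fit without the 3 least correlated arrays. In neonates 0 of the 12 were called against naive adults, and against effector adults 1 rose and 1 fell, where 5.93% of all tested genes rose and 14.7% fell. Of 14 genes that feed PD-L1 or PD-L2 from interferon, NF-kB or related inputs, 12 were tested and 7 of them rose and 0 fell in effector against naive adults, with a median of 0.57 (23.7% and 10.9% of all tested genes), while neither Cd274 nor Pdcd1lg2 passed the test. Hif1a, the hypoxia-inducible factor, rose by 1.36 ± 0.19, Irf9, a part of the type I interferon response complex, by 1.08 ± 0.16, and Nlrc5, a regulator of MHC class I genes, by 0.84 ± 0.17. In neonates against naive adults Hif1a rose by 1.37 ± 0.23, Stat3 by 0.81 ± 0.15 and Jak2 by 0.80 ± 0.18, while the feedback inhibitor Socs1 fell by 0.80 ± 0.16, which were the 4 called of the 12, where 10.2% of all tested genes were. Stat3 was called under all 27 alternatives. Hif1a was 0.44 higher where its features were averaged (adjusted p = 0.154), and Socs1 was 0.59 lower without the 3 least correlated arrays (adjusted p = 0.0685). The call of Jak2 was lost without neonate 1 and with only the arrays compared.

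Because CD80 and CD86 are best known from antigen-presenting cells, markers of such cells were read on the same arrays. Of 9 dendritic cell markers with a feature, 6 lay above the background range in effector adults and 2 in naive adults, and 9 and 8 were above the lower limits. The effector limits are lower: Zbtb46, at 4.41 in effector and 4.47 in naive adults, and Cd40, at 4.86 and 5.05, were counted in effector adults alone. The mean level of the list was 4.96 to 5.16 on effector arrays and 4.85 to 4.98 on naive arrays. Of the 8 tested, 2 rose and 1 fell (23.7% and 10.9% of all tested genes): Ccr7 rose by 1.47 ± 0.22 and Cd83 by 1.11 ± 0.11, and Xcr1 fell by 0.91 ± 0.18. Cd209a was bright, at 7.56 in effector and 7.42 in naive adults. Itgax, Flt3 and Fscn1 were in the background range in both, at 3.62, 4.16 and 4.33 in effector adults and 3.84, 4.25 and 4.19 in naive adults, above the lower limits except Itgax in naive adults. Of 12 macrophage and monocyte markers 3 were above the range in effector adults and 3 in naive adults, and of 7 B cell markers 1 in effector adults and 1 in naive adults, with Ms4a1 and Cd79a in the range in both. Above the lower limits lay 12 markers of the macrophage list in effector adults and 10 in naive adults, and 6 and 3 of the B cell list. Of 10 tested macrophage and monocyte markers 1 rose, Cd68, and 3 fell, Ccr2, Adgre1 and Mrc1. Of 3 tested B cell markers 1 rose, Cd79b, and 0 fell (23.7% and 10.9% of all tested genes). Over 25 alternatives Cd68 differed by 0.44 to 0.77, Cd79b by 0.86 to 1.24 and Ccr2 by -1.13 to -0.84, called in each. The calls of Adgre1 and Mrc1 were lost under 6 and 8 of 24. Of 7 tested endothelial markers 4 fell in effector cells, where 10.9% of all tested genes did. Among them were Ptprb by 1.24 ± 0.21 and Cldn5 by 1.06 ± 0.18, and the call of Tek was lost under 7 of 24 alternatives. Cldn5 and Tek were in the background range in both conditions and Ptprb in effector adults. Vwf, also called, was in that range in naive adults. The median level of the 387 sensory receptor genes was 3.86 on effector arrays and 4.63 on naive adult arrays. The part of such cells in the Cd80 difference was not tested.

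Of 9 tested T cell markers, 1 rose in neonates against naive adults, Cd3e, and 0 fell, with a median difference of 0.09 over the 9, where 6.04% of all tested genes rose. The T cell list had a mean level of 5.31 to 5.59 on neonatal arrays and 5.16 to 5.32 on naive arrays, with 6 of 10 genes above the background range in neonates and 3 of 10 in naive adults, or 9 and 8 above the lower limits. The neonatal limits are lower: Cd5, at 4.86 in neonates and 4.82 in naive adults, was counted in neonates alone. Cd3e read 8.10, 6.85 and 7.22 in neonates, against 5.72 to 6.37 in effector adults and 5.60 to 6.71 in naive adults, and was 1.40 ± 0.25 higher than in effector and 1.21 ± 0.25 higher than in naive adults, the second not called against naive females alone. Its highest array, neonate 1, was also the highest neonatal array of Icos, Cd28, Cd80, Cd274 and Pdcd1lg2, but not of Icosl or Cd86. In the T cell list Cd5 was also highest there among neonates, and all the other genes were highest on neonate 2 or neonate 3. Cd4, Cd8a, Cd8b1 and Foxp3 were in the background range in neonates, effector adults and naive adults, and of these Foxp3 was under the lower limit in neonates, and Foxp3 and Cd8a in naive adults. The mast cell and basophil list had a mean level of 5.40 to 6.29 on neonatal arrays and 5.05 to 5.18 on naive arrays, and 3 of its 6 tested genes rose, where 6.04% of all tested genes did. Cpa3 was 2.43 ± 0.20 higher, with 1.52 to 3.33 under its 27 alternatives and a call in each, whereas the call of Mcpt8 was lost under 16 of 27 and that of Tpsb2 under 1 of 26. Fcer1a, Ms4a2 and Mcpt4 were in the background range throughout, Fcer1a and Mcpt4 also under the lower limits. Of 8 tested epithelial markers, 1 rose in neonates against naive adults and 0 fell (6.04% and 4.12% of all tested genes). It was Sftpc, a surfactant gene of the alveolar epithelium, at 8.02, 7.64 and 6.86 in neonates against 4.50 to 7.25 in naive adults. Its call was lost under 5 of 27 alternatives, and the median difference of the 8 genes was 0.13. The part of these cells in the Cd28 and Icos differences was not tested.

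The genes whose levels followed a member most closely over the 15 arrays were named for the members whose group means spanned at least 1 log2 unit. The correlations are descriptions, and the arrays share their groups, so a gene that differs between groups in the same way ranks high. Cd80 was followed by Cnga1, a channel subunit gene (r = 0.93), Dgat2, an enzyme of triglyceride synthesis (r = 0.92), and the cytokine gene Il6 (r = 0.92), which differed by 0.67 ± 0.14, 2.38 ± 0.21 and 2.75 ± 0.22 between effector and naive adults. Icos was followed by Rgs10, a regulator of G protein signalling (r = 0.88), Uhrf2 (r = 0.87) and Avl9 (r = 0.86). Cd28 was followed by Errfi1, a feedback inhibitor of the EGF receptor (r = 0.92), Cwc25 (r = 0.88) and Jmjd1c (r = 0.88), and Errfi1 was 1.31 ± 0.39 higher in neonates than in naive adults.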

How the data were processed

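The deposited values are on a log2 scale and were used as the authors deposited them. The submitters' processing notes name Affymetrix Expression Console and RMA, a method that subtracts background, equalises the distributions of probes between arrays and combines the probes of a feature. The sources used here name no version, genome build or annotation for that step. Medians of the deposited arrays still differed, at 4.44 to 4.50 for effector and 4.56 to 4.64 for naive adult arrays. A further quantile normalization called 4595 genes for effector against naive adults, against 5628 as deposited. Per the labels' protocols, RNA came from a Trizol extraction and was labelled with a Nugen Encore kit. Of 41345 features, 23521 carried 1 gene symbol, 1814 several and 16010 none, and gene tests used the first kind alone. All columns of the table belonged to a sample.

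Features above percentile 40 of an array in 3 or more arrays were tested, 28958 in all and 17153 with 1 symbol. The brightest feature of a gene represented it, which gave 16257 genes. Group means were fitted in limma 3.58.1 (R 4.3.3), with 10 residual and 5.05 prior degrees of freedom, and 8 comparisons were drawn from the fit. Tests were two-sided with Benjamini-Hochberg adjustment, and the sexes had equal weight. SEs come from the spread pooled over all groups. Precision is limited by the number of arrays. The steps were tested on simulated data. Figures were drawn with matplotlib 3.10.9.

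The members and the gene lists were chosen with earlier results of these data known. The rule for names took the 7 members, all relatives and partners, up to 4 called genes with the largest change from a list in a comparison, or up to 2 where none was called, and the 3 genes most correlated with a member whose group means span at least 1 log2 unit; some genes that it allows are left out. Markers in the background range, Zbtb46, Cd40, Cd209a, Cd5, Gata3, Rora and Klrg1 were named for their role after their values were seen.

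Groups share replicate numbers, and no label says that these pair samples. Deviations of same-numbered arrays from their group means correlated at -0.106 to 0.131 over genes, with 1 of 30 pairs over 0.1. With 3 arrays per group, such values cannot show whether same-numbered samples were handled together. The alternatives were no filter on dim features, percentile 60, centring, quantile normalization, a trended and robust prior, array weights, a replicate block, the arrays compared alone, the mean of a gene's features, leaving out each array in turn or the 3 arrays with the lowest correlation with the others (naive male 1, naive male 2 and neonate 2), and adults of 1 sex against neonates.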

Additional observations from a re-analysis of the deposited data

Results flagged for a closer look

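Among 14 sets of 6 adult arrays, 1 per gene and condition, 2 held an array far from the other 5 by Dixon's criterion, which chance meets in about 1 of 20 sets. Cd86 was at 3.25 on naive female 2, with a gap to the nearest of the other naive arrays of 0.679 of the whole range. Cd274 was at 5.27 on naive male 2, with a gap of 0.635 of the range, and naive male 2 is among the 3 arrays least correlated with the rest. It also had the highest naive level of Pdcd1lg2, 5.61, and the highest mean of 8 neutrophil markers among naive arrays, which ran from 3.74 to 4.57. Retnlg read 6.29, S100a9 5.32 and S100a8 3.93 there, each the highest of the naive arrays, whereas Cxcr2 and Elane were lowest there. The part of such cells in the levels on naive male 2 was not tested. Cd274 was not called in any comparison, with naive male 2 or without it; Cd86 was too dim for the main test.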

How the results depend on the processing

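Of 1216 values from 48 differences of the members and their alternatives, 1187 kept their side of the threshold, 25 lost a call and 4 gained one. A change of sign in which the main or the alternative value was called occurred in 0. Differences that were not called did change sign under some alternatives. Examples are Cd28 for effector against naive adults (-0.25 to 0.08) and Cd274 for neonates against naive adults (-0.48 to 0.19). Of the list genes called, 30 of 44 for effector against naive adults, 5 of 22 for neonates against naive adults and 13 of 28 for neonates against effector adults were called under every alternative.

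After centring, Icosl for effector against naive adults was -0.39, and 6039 genes and 1 member were called. In females Icosl was not called without the filter, after centring and with the replicate block (-0.73 with the block, limma adjusted p = 0.0591). The block gave 1 gene for the difference of responses, as percentile 60, centring, array weights and the fit without the 3 least correlated arrays did. No label says that the replicate numbers pair samples. Array weights called 3745 genes in females, 11 between effector sexes and 19 between naive sexes, 705 for neonates against naive adults, with 0 members (Cd28 0.89), and 2068 against effector adults (Icosl 0.70). With the arrays compared alone, 8 genes were called between effector sexes, 8 between naive sexes and 676 for neonates against naive adults, with 0 members (Cd28 0.81); percentile 60, which Cd28 does not reach, left 0 members there. Naive females alone gave 935 genes and 0 members (Cd28 0.75), and against naive males alone Icos was called at 1.05. Effector females alone gave 1942 genes and 2 members (Icos 0.59, Icosl 0.58), effector males alone Cd28 at 0.70. Without the 3 least correlated arrays 2239 genes were called in males. The cause of these moves was not tested.

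Leaving out each array in turn gave, for effector against naive adults, 4665 to 5971 genes, 1 or 2 members and Icosl at -0.59 to -0.42. In females it gave 1358 genes (without effector female 2) to 2515, with 1 or 2 members, and 1435 without effector female 3. In males it gave 2607 (without effector male 3) to 4403, and for the difference of responses 0 to 8 (without naive male 3). Between naive sexes it gave 16 to 99 genes, the most without naive male 3 and the fewest without naive female 3 (18 without naive male 2, 20 to 22 without naive female 1, naive female 2, effector female 3 or effector male 1), 0 or 1 member, and Icos at 0.84 to 0.96. For neonates against naive adults it gave 1031 (without neonate 1) to 1856 genes, 0 to 2 members, Icos at 0.24 to 0.83, Cd28 at 0.45 to 1.06 and Pdcd1lg2 at 0.34 to 0.72. Against effector adults it gave 2061 (without neonate 2) to 3761 genes, 3 or 4 members, Cd28 at 0.53 to 1.15 and Icosl at 0.59 to 0.79. Few arrays per group, and signals of Cd28, Cd80, Cd86 and Pdcd1lg2 near background, limit these differences.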
